A study of Mus musculus with 4 samples.

Results

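The transcripts described here are those of the aminoacyl-tRNA synthetases, the enzymes that load each amino acid onto its tRNA. They were taken from arrays that compared mouse mucosal mast cells, differentiated in vitro and stimulated with interleukin 18 (IL-18), with their unstimulated controls. Each of 4 biological replicates was 1 two-colour array, with the stimulated RNA in Cy5 and its own unstimulated control in Cy3. The dose and duration of the stimulation, the mouse strain and the cells the cultures were grown from are not stated by the labels. All 4 arrays had the same dye orientation, so an effect of IL-18 and a dye bias of a probe cannot be told apart. In bulk RNA, fewer cells that carry a transcript and less of it per cell cannot be told apart either.

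Members were chosen by the array's annotation: a probe was taken if its description contained the words tRNA synthetase, which held for 76 of 41174 probes and for 45 of 27621 gene names. The selection used only that text and no measured value, but the family was proposed with earlier results of these arrays known, so the counts below describe it and do not test it. Names ending in ars2 were to be taken as mitochondrial. Of the 12 such names on the array, 2 did not hold up against current RefSeq symbols. The array's Vars2 was matched by accession to Vars, the cytosolic valyl enzyme, and its Hars2 to Dtd1, a deacylase that removes D-amino acids from tRNA. Mitochondrial enzymes also stood under older names, among them Vars2l (now Vars2), Aarsl (Aars2), Rarsl (Rars2), Harsl (Hars2) and Tarsl1 (Tars2). After this matching there were 21 cytosolic synthetase genes with 43 probes, 16 mitochondrial synthetase genes with 25 probes, 7 other names and 1 phenylalanyl-tRNA synthetase transcript without a matched gene.

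Aminoacyl-tRNA synthetases fall into a class I and a class II by the fold of the catalytic domain. In animal cells a set of the cytosolic enzymes sits in the multisynthetase complex, on the scaffold proteins Aimp1, Aimp2 and Eef1e1, while the others act outside it. Separate nuclear genes, most with names ending in 2, encode the mitochondrial enzymes, and the Kars and Gars genes encode both forms. Many cytosolic synthetase genes are known targets of ATF4, the transcription factor of the amino acid response, which binds C/EBP-ATF elements. Mast cells make and store large amounts of protein, granule proteases among them.

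Every array carried 43379 gene spots, of which 57.9% to 62.7% were well above background in the stimulated channel and 49.9% to 54.0% in the unstimulated channel. No gene spot was saturated (0 on each array), and the log2 ratios of different arrays correlated across probes with r between 0.619 and 0.906. Probes of all 10 mast cell markers checked were measured, with summed levels of 851800 arbitrary units in the stimulated channel and 600600 in the unstimulated one. After loess normalization 5 of them were called higher (Fcer1a, Cpa3, Mcpt1, Cma1 and Gata2) and 1 lower (Tpsb2, at a log2 ratio of −0.74). Of all tested genes 19.8% were called higher and 13.8% lower. The part of these markers in the results below was not tested. Of 26 markers of other cells, 17 were tested, with summed levels of 8433 stimulated and 8323 unstimulated, 7 were not well above background (among them Cd79a, Ngp, Epx, Prg2, Flt3 and Col1a1) and 2 had no probe. Against the same shares over all tested genes, 2 of the 17 were called higher after loess and 1 lower. Those higher were the basophil gene Mcpt8 at a log2 ratio of 0.41 (adjusted p = 0.0028) and the macrophage gene Adgre1 at 0.28 (adjusted p = 0.025). The 1 lower was the dendritic cell gene Itgax at −0.21 (adjusted p = 0.016). Their part in the results was not tested either. Of the synthetase probes, 70 of 76 passed the filter on dim spots, which asked that 3 or more of the 4 arrays had a clear signal in 1 and the same channel. They stood for 43 of the 45 names.

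The cytosolic synthetase transcripts were lower in IL-18 stimulated cells after loess normalization, with 13 of 21 genes called lower and 0 higher, whereas after median centring of the arrays 0 were called lower and 12 higher. A call means an adjusted p under 0.05 in limma over all 24104 tested probes, with a gene read from its brightest probe. By the same rule 13.8% of all 16376 tested genes were called lower and 19.8% higher (33.6% in either direction). The median log2 ratio of stimulated over unstimulated was −0.32 over the 21 cytosolic genes and 0.04 over all tested genes. Of the 16 mitochondrial genes, 2 were called lower and 2 higher, with a median of −0.03. Over all 43 tested members, 15 were called lower, 4 higher and 24 did not pass. Taken by the array's own names instead, 3 of the 12 genes ending in ars2 were called lower and 1 higher, and 12 of the other 31 tested genes were called lower and 3 higher.

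The direction relative to 0 depended on how brightness was treated. Loess removes a dye difference that changes with spot brightness, and median centring moves each array by 1 constant. With median centring the median of all tested genes was 0.54 and 10401 of them were called higher and 74 lower. The cytosolic median was then 0.66, a difference of 0.12 from that of all genes, where after loess the difference was −0.36. Of the 13 cytosolic genes called lower after loess, 5 then lay below the median of all genes and 8 above it. Against probes of like brightness the cytosolic probes at a mean log2 intensity of 9 or above were low under both treatments. Such a comparison takes out a trend with brightness much as loess does, so it is no separate check on the direction. Among probes with a mean log2 intensity from 9 to 11, the 12 cytosolic probes had a median log2 ratio of 0.24 after median centring against 0.70 over all tested probes, and −0.46 against 0.04 after loess. Among probes at 11 or above, the 24 cytosolic probes had 0.66 after median centring against 0.99 over all probes, and −0.33 against 0.0018 after loess. The 4 cytosolic probes under 9 went the other way, at 0.52 against 0.12 after median centring and 0.22 against 0.02 after loess. In the 2 brighter ranges the medians of the mitochondrial probes also lay below those of all tested probes. The 5 at 11 or above had −0.21 after loess and 0.65 after median centring. After loess 2 of them were called lower, where 23.5% of all tested probes in that range were. The 4 from 9 to 11 had −0.13 and 0.51, with 0 called lower, where 18.6% of all tested probes in that range were. After loess the brightest probes of Tars2 (−0.05), Yars2 (−0.04), Iars2 (0.04) and Vars2 (−0.01) were near 0. The others of these mitochondrial probes ranged from −1.39 for Lars2 to −0.21 for Rars2. These brightness limits were chosen after the values were seen. All ratios that follow are after loess.

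**Figure D1:**
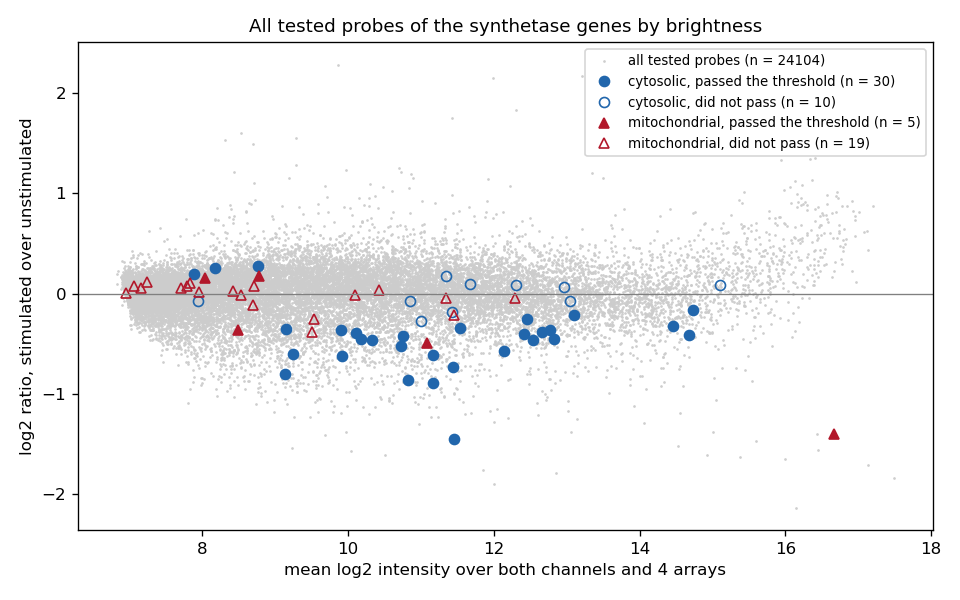
Log2 ratio of stimulated over unstimulated after loess (vertical axis) against mean log2 intensity over both channels and 4 arrays (horizontal axis) for all 24104 tested probes (grey), the 40 tested cytosolic synthetase probes (blue circles) and the 24 mitochondrial ones (red triangles). Filled marks passed the threshold: after loess 27 cytosolic probes lie below 0 and 3 dim ones above it. After median centring the medians of the brighter probes are above 0, and that of the cytosolic probes under 9 stays above 0, at 0.52.

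The number of calls, among the members and over all genes, also depended on which array was left out. Without replicate 2, 5 cytosolic genes were called lower, and 562 of all tested genes were. Without replicate 3 there were 7 cytosolic genes and 790 of all genes. In both of these fits 0 members were called higher. Without replicate 1 the cytosolic count was 13, and without replicate 4 it was 12. Aars, Eprs, Hars, Nars and Vars were called lower in all 4 of these fits, and the other 8 cytosolic genes lost the call in 1 or more of them. The cytosolic median stayed between −0.33 and −0.25 in these 4 fits. On the single arrays it was −0.18, −0.26, −0.26 and −0.44 in replicates 1 to 4, and 16, 17, 18 and 19 of the 21 genes were below 0. The mitochondrial median was 0.07, −0.02, −0.01 and −0.22 on the same arrays. Replicate 4 gave the lowest ratio for 10 of the 13 cytosolic genes called lower, which is 76.9%, and for 68.2% of all genes called lower.

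**Figure D2:**
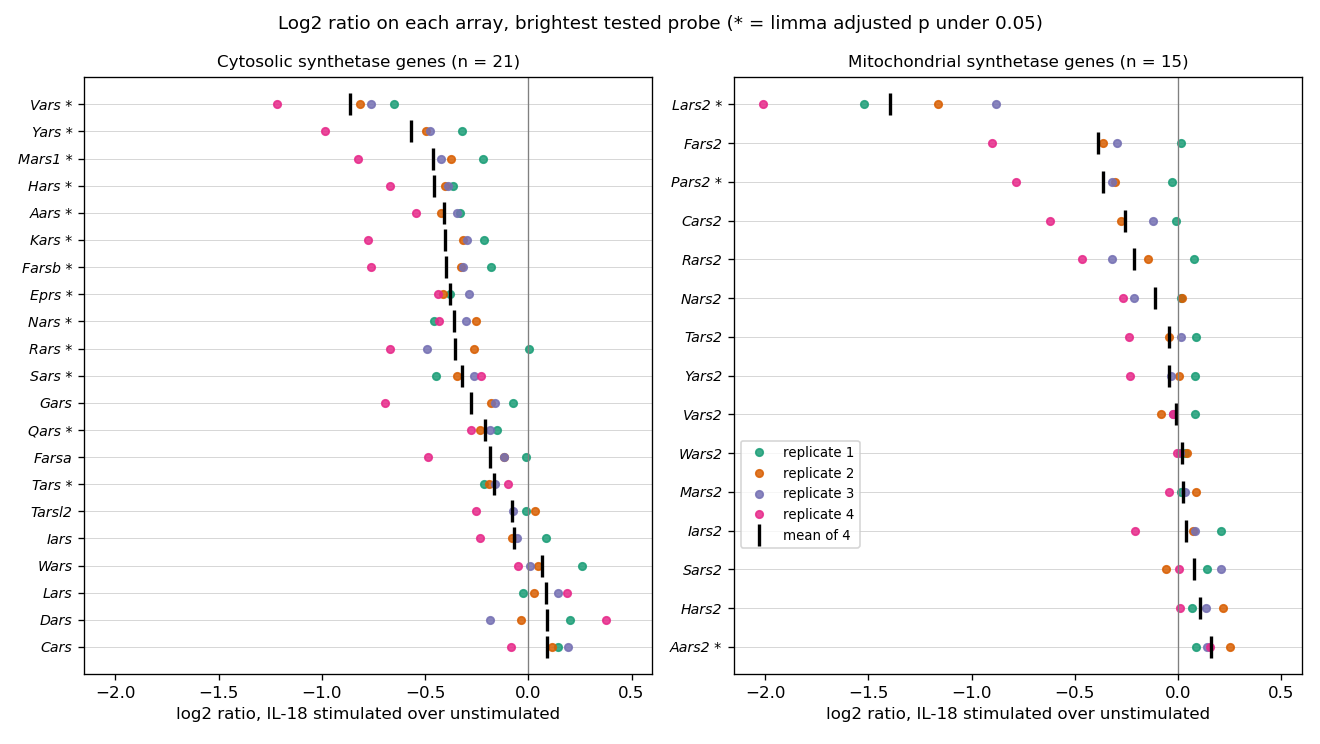
Log2 ratio of stimulated over unstimulated on each of the 4 arrays (coloured points) and their mean (black bar) for the brightest tested probe of the 21 cytosolic (left) and 15 of the mitochondrial (right) synthetase genes, after loess. Most cytosolic points lie below 0, in replicate 4 most often furthest, while most mitochondrial points other than those of Lars2 lie nearer 0 after loess; after median centring each of these genes but Vars lies above 0.

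Promoter sequences were taken from RefSeq (build GRCm38.p6) as windows of 300 bases, from 250 before to 50 after the annotated start. A window was found for 14 of the 21 cytosolic and 13 of the 16 mitochondrial genes. The letters TTGCATCA, a form of the C/EBP-ATF element, were searched on both strands. They stood in the windows of 4 of the 14 cytosolic genes (28.6%), in 0 of the 13 mitochondrial ones and in 1.03% of 27025 genes with a window. The 4 windows are shown because they hold this element. Capitals mark it, and each is written in the direction of its gene.
Aars, chr8:111033592-111033891, plus strand: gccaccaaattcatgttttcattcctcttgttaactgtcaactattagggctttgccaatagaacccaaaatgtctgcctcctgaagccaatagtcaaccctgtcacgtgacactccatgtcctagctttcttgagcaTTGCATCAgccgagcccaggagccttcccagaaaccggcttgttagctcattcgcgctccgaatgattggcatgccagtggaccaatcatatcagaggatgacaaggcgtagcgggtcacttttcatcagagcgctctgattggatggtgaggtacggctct
Iars, chr13:49681880-49682179, plus strand: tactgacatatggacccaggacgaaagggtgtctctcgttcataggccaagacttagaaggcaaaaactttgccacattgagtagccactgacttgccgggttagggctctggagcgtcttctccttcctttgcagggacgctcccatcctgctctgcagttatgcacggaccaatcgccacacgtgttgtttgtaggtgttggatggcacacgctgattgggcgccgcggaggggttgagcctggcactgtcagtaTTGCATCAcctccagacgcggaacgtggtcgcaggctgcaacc
Tars, chr15:11399609-11399908, minus strand: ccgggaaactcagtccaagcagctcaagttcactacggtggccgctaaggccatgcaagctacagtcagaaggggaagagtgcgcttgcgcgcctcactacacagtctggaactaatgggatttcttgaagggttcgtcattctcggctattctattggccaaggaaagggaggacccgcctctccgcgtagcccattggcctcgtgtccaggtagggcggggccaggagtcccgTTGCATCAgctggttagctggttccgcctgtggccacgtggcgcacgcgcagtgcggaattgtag
Yars, chr4:129189653-129189952, plus strand: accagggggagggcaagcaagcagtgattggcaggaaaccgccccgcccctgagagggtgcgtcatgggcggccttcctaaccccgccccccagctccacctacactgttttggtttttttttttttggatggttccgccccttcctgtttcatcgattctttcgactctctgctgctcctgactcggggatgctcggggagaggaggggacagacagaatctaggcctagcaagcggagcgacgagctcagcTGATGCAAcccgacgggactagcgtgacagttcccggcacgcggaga
In the Aars window the element began 112 bases before the start site and in the Tars window 15 bases before it. It began 7 bases after the start site in Iars and 3 bases after it in Yars, where it was on the minus strand of the gene and reads TGATGCAA. The looser TTNCATCA, which takes in every TTGCATCA, was found in 5 of 14 cytosolic windows (35.7%, with Gars added), 0 of 13 mitochondrial windows and 4.51% of all genes. A form of the kB element, which NF-kB binds, was found on either strand in 0 of 14 cytosolic windows, in 1 of 13 mitochondrial windows (Iars2) and in 6.31% of all genes. A match is a string of letters and no measured binding. Of the 4 genes shown, Aars, Tars and Yars were called lower and Iars was not, where 13 of all 21 cytosolic genes were called lower after loess. A link between the element and the ratios was not tested.

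In the multisynthetase complex 5 of 8 genes were called lower, and outside it 8 of 13 cytosolic genes were. Their median log2 ratios were −0.28 and −0.32. Of all tested genes 13.8% were called lower after loess, and after median centring 0 cytosolic genes were called lower. The complex members called lower were Eprs, Mars1, Kars, Rars and Qars.

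Eprs encodes the fused glutamyl- and prolyl-tRNA synthetase. Its normalised intensity, in arbitrary units after loess and scaling between arrays, was 5572, 5804, 5799 and 5477 in the stimulated cells of replicates 1 to 4, against 7239, 7723, 7084 and 7418 in the unstimulated cells. All stimulated values lay below all unstimulated ones. The log2 ratio was −0.38 ± 0.06 (SD, n = 4), or 0.769-fold, lower on 4 of 4 arrays with an adjusted p of 0.0027. The other 3 Eprs probes were called lower as well, so that all 4 had ratios between −0.61 and −0.34.

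Mars1 encodes the methionyl enzyme, which also charges the initiator tRNA. It had 5821, 4644, 4927 and 5059 in stimulated cells against 6772, 6026, 6606.5 and 8971 in unstimulated cells, without overlap. The difference was widest in replicate 4, and the log2 ratio was −0.46 ± 0.26 (adjusted p = 0.014). A second, dimmer Mars1 probe was lower by more, at −0.89. Kars, the lysyl enzyme of both compartments, had 5048, 4851.5, 4527 and 4625 stimulated against 5865, 6031.5, 5568.5 and 7927 unstimulated. Its groups did not overlap either, with replicate 4 again the widest pair and a log2 ratio of −0.40 ± 0.25 (adjusted p = 0.020). Qars, the glutaminyl enzyme, had 7917, 8602, 8090.2 and 7912 stimulated against 8803, 10114, 9186 and 9581 unstimulated. The groups were narrowly apart, with a log2 ratio of −0.21 ± 0.05 (adjusted p = 0.014) and −0.52 for its second probe. Rars, the arginyl enzyme, had log2 ratios of 0.003, −0.26, −0.49 and −0.67, so that replicate 1 showed nearly no difference. Its mean was −0.35 ± 0.29 with an adjusted p of 0.041, and its channels overlapped.

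The remaining complex members did not pass by their brightest probes. Iars (isoleucyl) had a log2 ratio of −0.07, Lars (leucyl) 0.08 and Dars (aspartyl) 0.09. Dimmer probes of Iars and Lars were called lower, at −0.62 for Iars and at −0.25 and −0.45 for Lars. For Dars a dim probe was called higher, at 0.19.

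Outside the complex, Vars had the lowest log2 ratio of the cytosolic genes. Vars, the valyl enzyme, had 1479.5, 1264, 1334 and 1321 in stimulated cells against 2319, 2227, 2265 and 3067 in unstimulated cells. Every stimulated value was below every unstimulated one, and the unstimulated cells of replicate 4 stood highest. The log2 ratio was −0.86 ± 0.25 (SD, n = 4), or 0.551-fold, with an adjusted p of 0.0020, and its second probe stood at −0.42. It was also the only one of the 15 members called lower whose ratio kept its sign after median centring, at −0.08, where it was not called.

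Yars, the tyrosyl enzyme, had 4315, 3409.9, 3610.5 and 3537 stimulated against 5393, 4805, 5017 and 7004 unstimulated. Its groups did not overlap, the log2 ratio was −0.57 ± 0.29 and the adjusted p 0.0098. Hars, the histidyl enzyme, had 6794, 6011, 5987 and 6001 stimulated against 8739.8, 7949, 7835 and 9555 unstimulated, also apart, with a log2 ratio of −0.46 ± 0.14 (adjusted p = 0.0041). A dim second probe of Hars went the other way, with 265, 326, 359 and 303 stimulated against 252, 279.8, 280.4 and 237 unstimulated and a ratio of 0.25 (adjusted p = 0.022). Its channels overlapped. Whether both Hars probes measured the same transcript was not tested.

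Aars, the alanyl enzyme, had 24869.9, 23306, 23831 and 19287 in stimulated cells against 31282, 31197, 30225 and 28154 in unstimulated cells. All stimulated values were lower, and the log2 ratio was −0.41 ± 0.10, or 0.753-fold, with an adjusted p of 0.0032. A dimmer Aars probe had the lowest ratio of all 70 tested members' probes, −1.44 ± 0.40 (adjusted p = 0.0016), with 1873, 1525.5, 1702 and 1730 stimulated against 4006, 4005, 4121 and 6959.6 unstimulated. Both were lower on 4 of 4 arrays, and whether both Aars probes measured the same transcripts was not tested.

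Nars, Sars and Tars, the asparaginyl, seryl and threonyl enzymes, moved by less. For Nars the stimulated cells had 6916, 5838, 5979 and 5966 against 9491, 6969.9, 7359 and 8041 unstimulated, just without overlap, and the log2 ratio was −0.36 ± 0.10 (adjusted p = 0.0046). Sars had 19027, 20739.6, 21213 and 19969 stimulated against 25966.5, 26324.5, 25451 and 23431 unstimulated, apart in every replicate, at −0.32 ± 0.10 (adjusted p = 0.0064). For Tars the stimulated cells had 26291, 25895, 26181 and 24468.5 against 30491, 29543, 29297 and 26196 unstimulated. The channels overlapped, since the unstimulated value of replicate 4 was low, and the log2 ratio was −0.17 ± 0.05 (adjusted p = 0.027). Its second probe was lower by more, at −0.73.

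The phenylalanyl enzyme has 2 subunits, encoded by Farsa and Farsb. Farsb had 944, 974, 993 and 918 stimulated against 1068, 1220.5, 1238 and 1556 unstimulated, without overlap, and a log2 ratio of −0.40 ± 0.25 (adjusted p = 0.021). The brightest Farsa probe did not pass, at −0.01, −0.12, −0.12 and −0.49 on the 4 arrays (mean −0.18, adjusted p = 0.12). A second Farsa probe was called lower, at −0.14, −0.40, −0.43 and −0.87, and another, dim one was called higher, at 0.31, 0.19, 0.36 and 0.22. The transcript described as a phenylalanyl synthetase without a matched gene had −0.13 and did not pass. Gars (glycyl) had ratios below 0 on 4 of 4 arrays, with a mean of −0.28 that did not pass, at an adjusted p of 0.077. Cars (cysteinyl) at 0.09, Wars (tryptophanyl) at 0.07 and Tarsl2, a threonyl-like enzyme, at −0.08 did not pass, while dimmer probes of Cars and Wars were called lower, at −0.60 and −0.80.

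**Figure D3:**
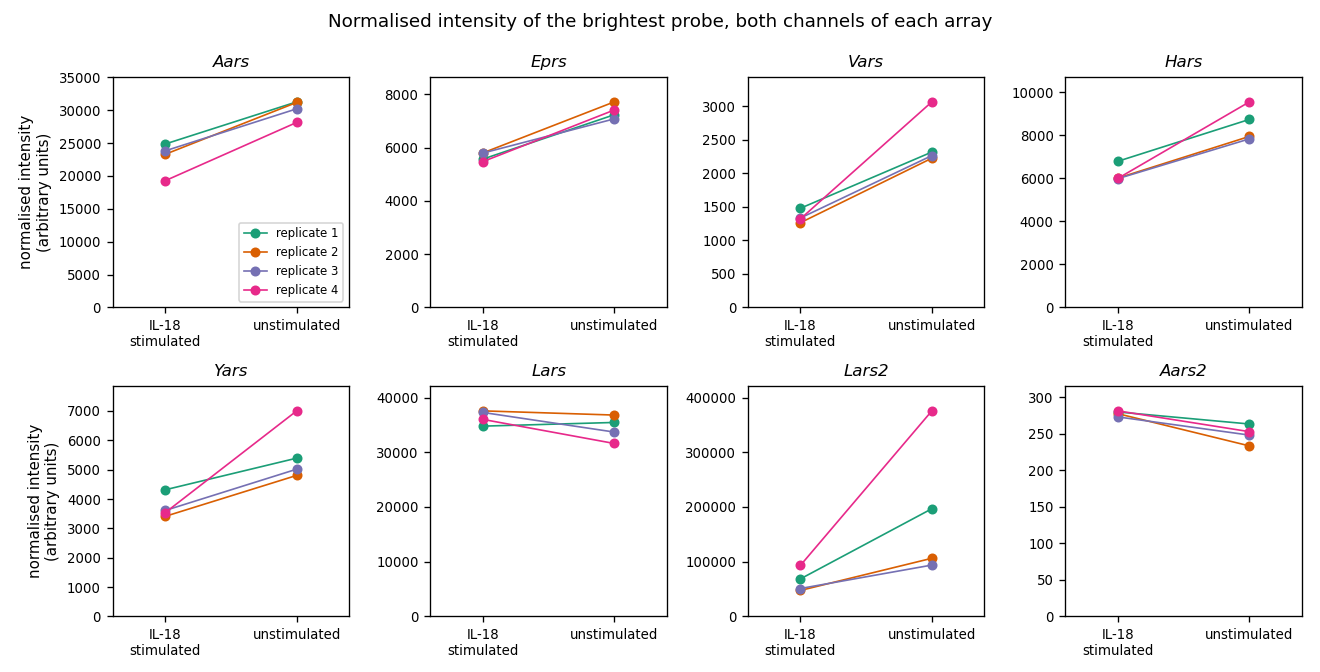
Normalised intensity (arbitrary units, axis from 0) of the brightest probe in the stimulated and the unstimulated channel of each array, joined by a line per replicate, after loess, for 8 synthetase genes. The stimulated points of Aars, Eprs, Vars, Hars, Yars and Lars2 lie below their unstimulated partners on all 4 arrays, those of Aars2 lie above, and those of Lars differ little.

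Probes of 1 gene often disagreed in size. Of the 13 cytosolic genes with more than 1 tested probe, 6 had all probes called lower (Aars, Eprs, Mars1, Qars, Tars and Vars), and 2 had probes called in opposite directions (Farsa and Hars). Counted over probes, 27 of 40 cytosolic probes were called lower and 3 higher, where 16.1% of all tested probes were called lower and 18.1% higher. Of the 21 genes, 18 had at least 1 probe called lower, 3 had at least 1 called higher (Dars, Farsa and Hars), and 2 had none called (Gars and Tarsl2). Counts of genes by any or all of their probes depend on how many probes a gene has. The like shares over all tested genes were not worked out. The 3 probes called higher all had a mean log2 intensity under 9. By catalytic class, 5 of 9 class I genes and 7 of 11 class II genes were called lower, with Eprs, which joins both classes, counted in neither. The share called lower over all tested genes was 13.8%.

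Among the mitochondrial genes Lars2, the leucyl enzyme, stood apart. Its stimulated cells had 68556, 47455, 50995 and 93193 against 196742, 106211, 93814 and 375584 in unstimulated cells. Every stimulated value was below every unstimulated one, by a small margin between the 93193 stimulated of replicate 4 and the 93814 unstimulated of replicate 3. The spread between replicates was wide, 65049.6 ± 20908 stimulated and 193088 ± 130027 unstimulated (SD, n = 4). The log2 ratio was −1.39 ± 0.49, or 0.381-fold, with an adjusted p of 0.0029, lower on 4 of 4 arrays and called in every fit that left out 1 array. Only 1 probe measured it, and after median centring its ratio was 0.15 and not called. The mean log2 intensity of this probe was 16.7, against a median of 9.14 over the mitochondrial genes. Whether it also measured other transcripts was not tested. The other mitochondrial gene called lower was Pars2, the prolyl enzyme, with 370.5, 301, 298 and 317 stimulated against 379, 373, 372 and 546 unstimulated. Its values were dim and barely apart, and the log2 ratio was −0.36 ± 0.31 with an adjusted p of 0.047. It was called in 1 of the 4 fits that left out an array.

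Among the 2 mitochondrial genes called higher was Aars2, the alanyl enzyme, which was dim and differed by a small amount. It had 280.1, 278, 273 and 282 stimulated against 264, 234, 248 and 253 unstimulated, at 0.16 ± 0.07 (adjusted p = 0.038). Its channels did not overlap, and it was called in 1 of the 4 fits that left out an array. The other 12 mitochondrial genes did not pass, with ratios from −0.39 for Fars2 (phenylalanyl, adjusted p = 0.064) to 0.11 for Hars2 (histidyl). For Tars2, the threonyl enzyme, the brightest probe had −0.05 and a second probe was called lower, at −0.49. In all, 11 of the 16 mitochondrial genes had no probe called, and the like share over all tested genes was not worked out. Of 24 mitochondrial probes 3 were called lower and 2 higher. Of all tested probes 16.1% were called lower and 18.1% higher.

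The cytosolic and mitochondrial enzymes for the same amino acid can be set side by side on the log2 scale of differences. For valine, Vars had −0.86 and Vars2 −0.01. For alanine, Aars had −0.41 and Aars2 0.16, and for histidine, Hars had −0.46 and Hars2 0.11. Of the 13 amino acids with 1 gene of each kind, the cytosolic ratio was the lower one for 10 after loess. The order was the other way for the remaining 3, leucine with 0.08 for Lars and −1.39 for Lars2, cysteine with 0.09 for Cars and −0.26 for Cars2, and tryptophan with 0.07 for Wars and 0.02 for Wars2. After median centring the order turned for most of the 10 amino acids with the lower cytosolic ratio. Aars then had 0.86 and Aars2 0.47, and Hars had 0.57 and Hars2 0.37. The order held for arginine, for tyrosine and for valine, with −0.08 for Vars and 0.68 for Vars2. The difference between the 2 compartments was not tested, and the median intensity of the brightest probes was 12.5 on the log2 scale for the cytosolic genes and 9.14 for the mitochondrial ones.

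The other names found by the description were relatives of the synthetases or described as like one. Dtd1 had a log2 ratio of 0.14 and Aarsd1, which removes serine mischarged onto alanine tRNA, 0.05, and neither passed. A transcript contig described as part of a threonyl enzyme (TC1473513) was called higher, with 257, 340.1, 324 and 469 stimulated against 247, 220.3, 233 and 198 unstimulated. Its log2 ratio was 0.60 ± 0.49 (adjusted p = 0.035). A contig described as part of a lysyl enzyme (TC1484949) was called higher too, with 254, 519.7, 485 and 814 stimulated against 247.5, 359.8, 336 and 359 unstimulated, at 0.57 ± 0.47 (adjusted p = 0.036). For both, replicate 1 showed nearly no difference and replicate 4 the widest, and each was called in 2 of the 4 fits that left out an array. AK077897, which is described as a lysyl synthetase pseudogene, had 0.10 and did not pass. Others so described, AK033273 and a probe that the array names Dhx33, were not well above background on any array. Their intensities were 98.9 to 109.8 stimulated and 98.7 to 112.3 unstimulated. The other untested probes were 2 of Aars, 1 of Tarsl2 and 1 of Wars2, genes for which brighter probes were tested.

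**Figure D4:**
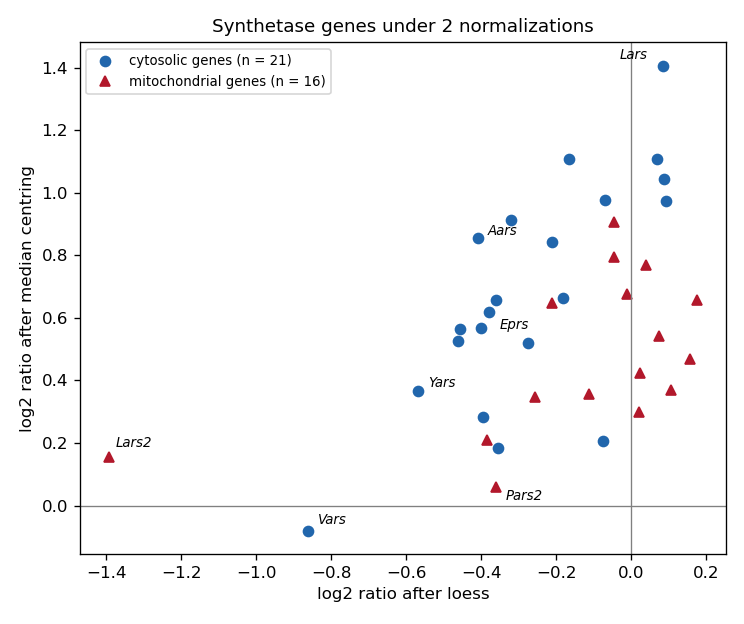
Mean log2 ratio of each synthetase gene after median centring (vertical axis) against that after loess (horizontal axis), for 21 cytosolic (blue circles) and 16 mitochondrial (red triangles) genes. After median centring every gene shown but Vars (−0.08) is above 0, up to 1.41 for Lars, and Vars and Lars2 are among the lowest genes on both axes.

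Other genes of the pathway were read from 2 lists. Of 35 genes of the amino acid response through ATF4, 33 were tested (Chac1 and Atf5 were not well above background), and 4 were called higher and 9 lower, with a median of −0.0075, after loess, where 19.8% of all tested genes were called higher and 13.8% lower; after median centring 28 were called higher and 0 lower. Called lower most were Ppp1r15a, which directs dephosphorylation of the initiation factor eIF2α, at −1.07 ± 0.37, Trib3, a pseudokinase induced by ATF4, at −0.51 ± 0.10, and Shmt2, the mitochondrial serine hydroxymethyltransferase, at −0.47 ± 0.08 (SD, n = 4). Their adjusted p-values were 0.0029, 0.0017 and 0.0018. The 4 called higher were Nupr1 at 0.46, Psph, an enzyme of serine synthesis, at 0.27, and the transcription factor genes Atf3 at 0.26 and Ddit3 at 0.25. Atf4 itself had −0.002, −0.23, −0.20 and −0.64 on the 4 arrays, with a mean of −0.27 that did not pass (adjusted p = 0.073). Asns, the asparagine synthetase gene and a textbook target of ATF4, had 0.04 and did not pass. Of the genes in this list, 7 of 31 with a promoter window held TTGCATCA (22.6%): Chac1, Slc7a11, Slc1a4, Vldlr, Herpud1, Nupr1 and Atf3. Nupr1 and Atf3 were called higher, Chac1 was not tested, and the other 4 did not pass. The looser TTNCATCA was found in 10 of the 31 windows (32.3%), with Asns, Trib3 and Pck2 added. Of these Trib3 was called lower, and Asns and Pck2 did not pass. Atf4, Asns and the 4 genes called higher were picked for mention after their values were seen.

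Of 30 partners in tRNA charging and tRNA processing, all tested and with Dtd1 and Aarsd1 among them, 6 were called higher and 4 lower, with a median of 0.00072, after loess; after median centring 28 were higher and 0 lower. These counts after loess are near the shares over all tested genes, 19.8% higher and 13.8% lower. Sephs2, which makes the selenium donor for selenocysteine tRNA, was lower, at −0.46 ± 0.11. Ptrh2, a peptidyl-tRNA hydrolase, was higher, at 0.39 ± 0.08, and so was Eef1e1, a scaffold of the multisynthetase complex, at 0.35 ± 0.05 with 0.28, 0.39, 0.34 and 0.40 on the 4 arrays. The adjusted p-values of these 3 were 0.0025, 0.0029 and 0.0030. The other scaffold genes did not pass, with −0.09 for Aimp1 and −0.13 for Aimp2. Also called lower were Tsen54 and Tsen34, subunits of the tRNA splicing endonuclease, at −0.29 and −0.20, while Tsen15, which encodes another subunit, was called higher, at 0.35. Aimp1, Aimp2, Tsen54, Tsen34 and Tsen15 were picked for mention after their values were seen.

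**Figure D5:**
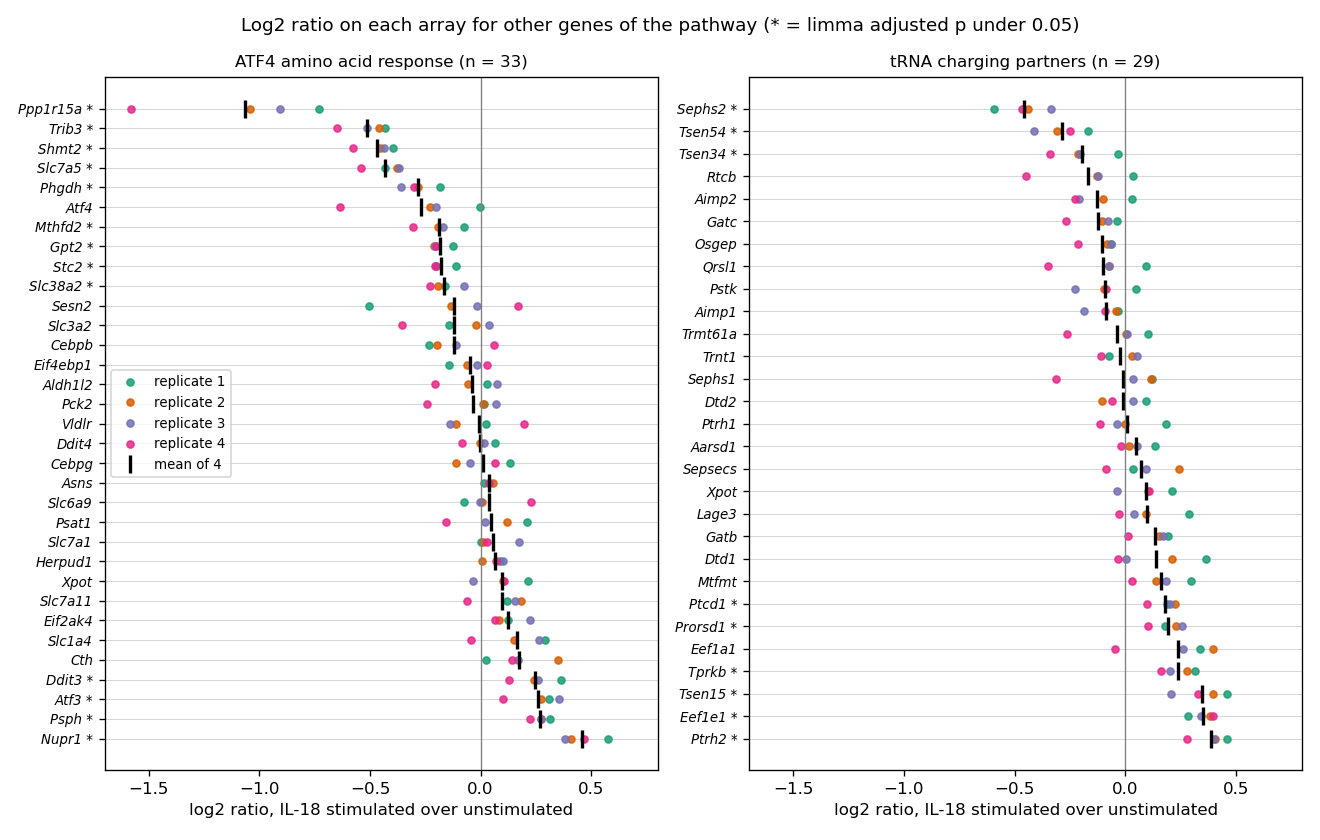
Log2 ratio of stimulated over unstimulated on each array (coloured points) and their mean (black bar) for the 33 tested genes of the ATF4 list (left) and 29 of the partners in tRNA charging (right), after loess; asterisks mark an adjusted p under 0.05. In both lists the genes spread to both sides of 0, from −1.07 for Ppp1r15a to 0.46 for Nupr1 on the left and from −0.46 for Sephs2 to 0.39 for Ptrh2 on the right, whereas after median centring 0 genes of either list are called lower.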

How the data were processed

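The authors hybridised stimulated (Cy5) and unstimulated (Cy3) RNA of each replicate to 1 Agilent 4x44K array, and the spots were read with Agilent Feature Extraction 9.1, per the submitters' processing notes. The intensity values used, spot means and local background medians, are as deposited. The log10 ratios of the authors' software (per the file headers, background-subtracted and spatially detrended, with dyes normalised by a linear and a lowess step) and of the deposited series table, which differ by at most 0.00496, served as alternatives, turned into log2 ratios.

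From the intensities, limma 3.58.1 in R 4.3.3 corrected background (normexp, offset 50), normalised within arrays by loess and averaged spots of a probe. Control spots and spots marked as outliers were left out. A probe was tested if 3 or more arrays had it well above background, all in 1 channel. The mean log2 ratio was tested against 0 (lmFit, eBayes, two-sided), with Benjamini-Hochberg adjustment over 24104 probes and a threshold of 0.05. A ratio within an array is the difference within a pair, so the test is paired. Channel levels were scaled between arrays (Aquantile). The number of arrays, 4, limits the precision: an exact sign-flip test could not go below p = 0.125, and none is reported. Arrays of replicates 1 and 2 shared slide 1 and those of 3 and 4 slide 2.

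Symbols come from RefSeq tables of GRCm38.p6 by accession (55 of 76 member probes), other rows of the same name, or synonyms. The files name no build, and probe sequences were not used here. Steps were tested on simulated arrays. Members, lists and tests were chosen with earlier results of these data known. Values per array are given for members past the threshold whose 4 arrays had 1 sign, for those with probes called in opposite directions and for those with no tested probe; of each list the 3 members past the threshold with the largest log2 ratios in size are named, and any others were picked after their values were seen. A few single genes that these rules pick are not reported here. The alternatives were the software's log ratio, the deposited table, median centring, no background correction, no filter, the mean over probes, other eBayes settings, the slide as a block or alone, and leaving out each replicate.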

Additional observations from a re-analysis of the deposited data

Results flagged for a closer look

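The log2 ratio of Hars, the histidyl enzyme, had 1 array far from the other 3. Replicate 4 had −0.67, while replicates 1, 2 and 3 had −0.36, −0.40 and −0.39. The gap to the nearest array was 0.871 of the whole range, above Dixon's 95% critical value for 4 samples. Without replicate 4 the ratio was −0.38 and Hars was still called lower. This was 1 of 43 genes examined, and chance passes this limit in about 1 of 20 groups.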

How the results depend on the processing

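Median centring in place of loess changed most results. The members called lower went to 0 and those called higher to 28, the cytosolic counts to 0 and 12 with a median of 0.66, and the mitochondrial counts to 0 and 11 with a median of 0.45. Of all tested genes 74 were then lower and 10401 higher, and of both lists 0 lower and 28 higher each. Single ratios that turned positive were, among genes called lower after loess, Lars2 0.15, Tars 1.11, Aars 0.86, Sars 0.91, Qars 0.84, Hars 0.57, Nars 0.66, Eprs 0.62, Mars1 0.53, Kars 0.57, Yars 0.37, Farsb 0.28, Rars 0.19 and Pars2 0.059, and among the others Iars 0.98, Tars2 0.91, the unmatched phenylalanyl transcript 0.74, Rars2 0.65, Farsa 0.66, Yars2 0.79, Gars 0.52, Vars2 0.68, Cars2 0.35, Fars2 0.21, Nars2 0.36 and Tarsl2 0.21. Whether loess or median centring is nearer to the transcript levels was not tested.

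Leaving out 1 replicate gave 6 to 18 members lower and 0 to 4 higher, 5 to 13 cytosolic genes lower and 0 to 1 higher, 1 to 5 mitochondrial genes lower and 0 to 1 higher, 562 to 2913 of all genes lower and 1009 to 3412 higher, 4 to 9 ATF4 genes lower and 2 to 6 higher, and 1 to 5 partners lower and 3 to 9 higher. No count was lower than that without replicate 2. The cytosolic gene higher without replicate 4 was Cars. Aars, Eprs, Hars, Nars and Vars were called lower in all 4 of these fits, and 4 of them, all but Hars, in every alternative other than median centring. Small ratios that turned ranged from −0.0076 to 0.18 for Dars, −0.089 to 0.019 for Tars2, −0.088 to 0.018 for Yars2, −0.018 to 0.12 for Iars2 and −0.044 to 0.012 for Vars2.

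On slide 1 alone 2 members were higher, 1 mitochondrial gene was lower and 1 higher, 1182 of all genes lower and 1769 higher, 5 ATF4 genes and 1 partner lower; Iars had 0.0037, Tars2 0.021, Yars2 0.044, Vars2 0.00065, Nars2 0.018 and Tarsl2 0.011. On slide 2 alone 2 members were higher, 4 mitochondrial genes lower and 0 higher, 1516 of all genes higher, 1 ATF4 gene higher, and 2 partners higher and 2 lower; Wars had −0.019, Dtd1 −0.014, Iars2 −0.064 and Mars2 −0.0069. Cytosolic genes called lower numbered 10 on each slide. The mitochondrial count lower was 4 with the software's log ratio, with the deposited table and with other eBayes settings (which left 2 members higher), 5 without background correction (with 7 partners lower) and 1 without the filter on dim probes. Lars had −0.0090 with the software's ratio and with the deposited table. With the mean over probes Lars had −0.21 and Wars −0.37, both called lower, Cars −0.11 and Yars2 0.0040. The slide as a random block (correlation −0.056) changed no call among the 43 members, while 8 partners were called higher and, of all tested genes, 3433 higher and 2389 lower. No paired analysis beyond the main one was possible because each ratio is already the difference within 1 pair. No gene spot was saturated (0), and the 4 arrays limit the precision.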
